A study of Mus musculus with 12 samples.

Results

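The mitochondrial carriers of the Slc25 family were measured in mouse liver as every transcript cluster of the array whose platform symbol is Slc25a followed by a number. A transcript cluster is the set of probes that the array design assigns to a gene. This rule found 50 clusters of 46 genes, among 21789 clusters with a single gene symbol that represent 19938 genes. Slc25a5 had 3 clusters, Slc25a36 and Slc25a40 had 2 each, and each gene is described by its cluster with the highest mean over the 12 arrays.

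Livers came from 4 groups of 3 mice: euthyroid control, hypothyroid control, euthyroid L-NCoR∆ID and hypothyroid L-NCoR∆ID. NCoR is a corepressor that unliganded thyroid hormone receptors recruit to their target genes, and L-NCoR∆ID mice are called mutant below; the liver allele, from knowledge of this mouse line, makes an NCoR protein that lacks its receptor interaction domains. In that line the change is restricted to hepatocytes, so other liver cells keep normal NCoR. The labels do not state strain, sex, age or how hypothyroidism was brought about. The study asked what NCoR does for genes that thyroid hormone raises and for genes that it lowers. Total RNA, 200 ng per liver, was hybridised to Affymetrix mouse Gene 1.0 ST arrays, and every level below is the deposited log2 signal, so a difference of 1 is a doubling. The labels number the mice but do not say more about them, so p-values measure the spread between these 12 samples, and 3 arrays per group limit the precision.

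Carriers of this family sit in the inner mitochondrial membrane, with a few in other membranes, and exchange metabolites, nucleotides, cofactors or phosphate between cytosol and matrix. Liver uses them to export citrate for fatty acid synthesis, to import acylcarnitines for oxidation, to move ornithine and aspartate for the urea cycle, and to shuttle reducing equivalents. Thyroid hormone is a classic stimulus of mitochondrial respiration and of adenine nucleotide exchange, and Slc25a25, Slc25a1 and Slc25a5 are the carriers considered here as linked to it.

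The arrays matched their thyroid state labels in Dio1, while the genotype labels were not checked independently. Dio1, the deiodinase that thyroid hormone raises in liver, was at 8.14 to 9.74 in the 6 euthyroid mice and at 2.83 to 3.72 in the 6 hypothyroid mice. Thrsp, a lipogenic gene also read as induced by thyroid hormone, was not called between thyroid states averaged over genotypes (-0.68 ± 0.212 (SE), adjusted p = 0.0698). It was 2.12 ± 0.212 higher in the mutants averaged over thyroid states (adjusted p = 0.000139). A mutant difference on these same arrays does not check the genotype labels. Ncor1 itself was not analysed here. Array medians ran from 4.16 to 4.32, and the SD over all clusters ran from 2.22 to 2.28 in euthyroid controls and from 2.32 to 2.35 in hypothyroid mutants. Array SD therefore moved with the groups; the groups are also compared with it as a covariate. The mean of 8 hepatocyte markers was 12.15 to 12.43 on every array. Of the 8, 1 was called higher with hypothyroidism averaged over genotypes, Ttr (0.32, adjusted p = 0.0259), against 4.18% of all clusters. The mean of 3 erythroid, 6 muscle and 4 adipocyte markers stayed at 2.99 to 4.83, and no gene of these lists was called in any comparison. None of 6 stellate, 4 cholangiocyte, 5 endothelial or 6 lymphocyte and neutrophil markers was called either. Of all clusters, 0% to 6.04% were called, depending on the comparison.

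Differences were tested with limma over all 21789 clusters, with 4 group means, and a gene was called at a Benjamini-Hochberg adjusted p under 0.05. Besides the 4 direct comparisons, the hypothyroid difference was averaged over genotypes, the mutant difference was averaged over thyroid states, and an interaction term tested whether the mutant effect depended on thyroid state. The direct comparisons share groups, so they are not independent of each other.

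Hypothyroidism lowered 2 carriers in both genotypes and raised a few others. In control mice 3 of 46 carriers passed the test, against 1.11% of all clusters: Slc25a30 and Slc25a45 fell (0.473% of all clusters fell) and Slc25a32 rose (0.638% rose). In mutant mice 3 of 46 passed, again against 1.11% of all clusters: Slc25a30 and Slc25a45 fell (0.454% fell) and Slc25a37 rose (0.652% rose). Averaged over genotypes 6 carriers passed, 13% of the family against 6.04% of all clusters. Of these, Slc25a30 and Slc25a45 fell (1.87% of all clusters fell), and Slc25a17, Slc25a32, Slc25a37 and Slc25a48 rose (4.18% rose). The other 40 carriers did not pass, and the median difference of the family was 0.01 against -0.02 for all clusters. By an unadjusted p under 0.05 the counts were 7 in controls, 10 in mutants and 15 averaged, which is 15.2%, 21.7% and 32.6% of the family against 13%, 15.8% and 24.7% of all clusters. Thyroid states did not overlap for 9 carriers in controls (16.7% of all clusters), for 18 in mutants (25.7%) and for 4 over both genotypes (3.75%).

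Slc25a30 is an uncoupling protein-like carrier. Its level was 7.38, 6.04 and 6.69 in euthyroid controls and 4.81, 5.36 and 5.28 in hypothyroid controls. In mutants it was 7.86, 7.20 and 7.12 when euthyroid and 5.44, 5.98 and 5.33 when hypothyroid. Every hypothyroid mouse was thus below every euthyroid mouse of either genotype, a separation in that direction seen in 1.13% of all clusters for 6 mice against 6. Slc25a30 fell by 1.55 ± 0.293 log2 units (SE) in controls (adjusted p = 0.0161), a 2.93-fold drop, and by 1.81 ± 0.293 in mutants (adjusted p = 0.00649), a 3.51-fold drop. The averaged drop was 3.21-fold (adjusted p = 0.000207) and was called under each alternative tried. In controls the call alone was lost without control euthyroid replicate 15 (adjusted p = 0.0541) or control hypothyroid replicate 17 (0.0929). It was also lost when only the compared groups were fitted (0.0654) or every cluster of the table was tested (0.0898). Over 19 alternatives the averaged difference ran from -2.16 to -1.51.

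Slc25a45, a liver carrier whose substrate was long unsettled, lay at 6.54, 6.85 and 6.68 in euthyroid controls and at 5.59, 4.94 and 5.04 in hypothyroid controls. Mutants had 6.79, 7.34 and 6.84 when euthyroid and 5.90, 5.62 and 5.65 when hypothyroid. No hypothyroid mouse reached a euthyroid mouse. The fall was 1.50 ± 0.186 in controls (adjusted p = 0.000611), or 2.83-fold, and 1.26 ± 0.186 in mutants (adjusted p = 0.00328), or 2.40-fold. In controls the call held under all 20 alternatives, and in mutants it was lost only with array SD as a covariate, where the difference was -1.27 (adjusted p = 0.1). Averaged over genotypes the fall was 2.61-fold (adjusted p = 1.84e-05).

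The promoters of these carriers are shown because Slc25a30 and Slc25a45 moved furthest and Slc25a25 is the carrier set out above as thyroid hormone linked. RefSeq windows of 250 bases before each gene's start on build GRCm38.p6 were read 5′ to 3′ on the gene's strand, in lower case, with capitals for AGGTCA, TGACGTCA or GGGCGG on either strand. AGGTCA is the hexamer bound by many nuclear receptors, TGACGTCA is the cyclic AMP response element, and GGGCGG is the GC box; no 2 of these matches overlap in the windows shown.
Slc25a30, chr14:75787038-75787287, minus strand: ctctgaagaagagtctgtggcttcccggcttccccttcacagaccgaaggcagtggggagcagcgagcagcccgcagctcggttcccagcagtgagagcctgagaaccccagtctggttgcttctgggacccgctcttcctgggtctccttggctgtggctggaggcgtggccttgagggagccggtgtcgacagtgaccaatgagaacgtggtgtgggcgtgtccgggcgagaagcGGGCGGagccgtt
Slc25a45, chr19:5877572-5877821, plus strand: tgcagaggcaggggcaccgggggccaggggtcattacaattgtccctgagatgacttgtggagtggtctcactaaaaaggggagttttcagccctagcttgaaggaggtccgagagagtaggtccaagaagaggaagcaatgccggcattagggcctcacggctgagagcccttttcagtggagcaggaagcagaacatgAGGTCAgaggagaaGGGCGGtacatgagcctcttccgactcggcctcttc
Slc25a25, chr2:32424067-32424316, minus strand: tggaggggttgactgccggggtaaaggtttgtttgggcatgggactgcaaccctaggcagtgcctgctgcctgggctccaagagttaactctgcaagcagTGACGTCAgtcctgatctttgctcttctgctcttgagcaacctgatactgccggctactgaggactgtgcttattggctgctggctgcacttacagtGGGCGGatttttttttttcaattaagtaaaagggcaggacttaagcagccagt
The Slc25a30 window holds a GC box whose first base lies at -13 from the start, and no AGGTCA. The Slc25a45 window holds AGGTCA at -50 and a GC box at -36. The Slc25a25 window holds TGACGTCA at -150 and a GC box at -53; it is 1 of 3 starts listed for that gene. Windows were found for 36 of the 46 carriers, 46 windows in all, and AGGTCA was in 4 of them (8.7%), those of Slc25a34, Slc25a39, Slc25a45 and Slc25a47, against 14% of 32851 windows of all genes. TGACGTCA was in the windows of Slc25a25 and Slc25a36, 4.35% against 1.55%, and GGGCGG was in 69.6% against 32.7%. Median GC content was 57.4% in carrier windows and 52.4% in all windows; its part in the GC box share was not tested. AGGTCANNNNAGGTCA, the direct repeat spaced by 4 bases, was in no carrier window and in 0.0152% of all windows, and CCAAT was in 45.7% against 33.8%. These are matches of letters, and binding was not measured.

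**Figure D1:**
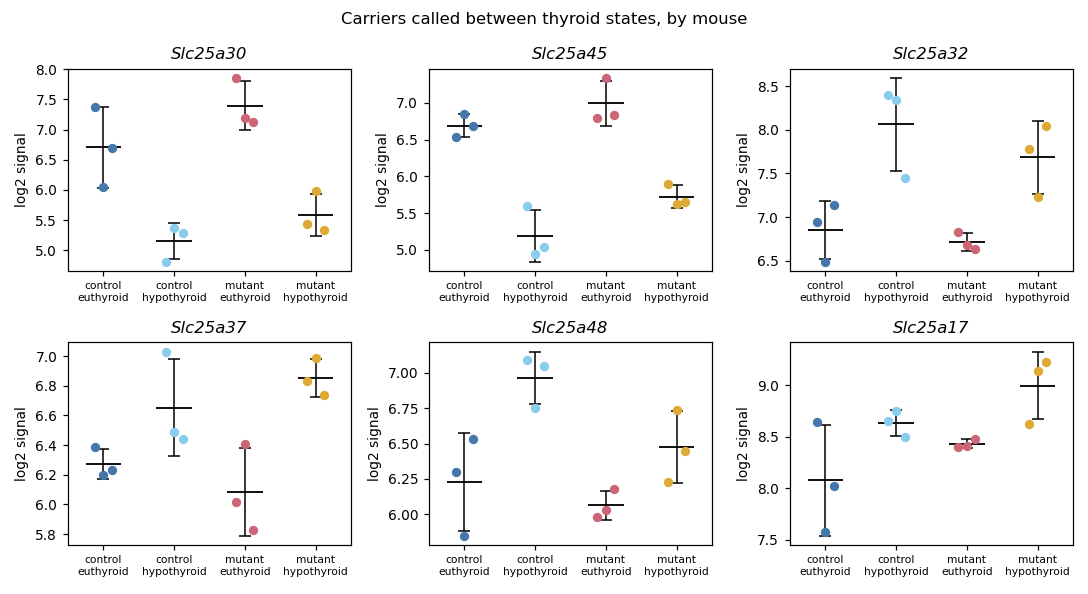
Log2 signal (y axis) of the 6 carriers called between thyroid states averaged over genotypes, in each mouse (points), by group (x axis); lines and bars are the mean and SD of 3 mice. Slc25a30 and Slc25a45 are lower in all hypothyroid mice, while Slc25a17 and Slc25a48 have overlapping mice.

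Slc25a32, the mitochondrial carrier of folate and flavin, moved the other way. It was at 6.94, 6.49 and 7.14 in euthyroid controls and at 8.40, 8.34 and 7.45 in hypothyroid controls. The mutant levels were 6.83, 6.68 and 6.64 when euthyroid and 7.78, 7.23 and 8.04 when hypothyroid. All 6 hypothyroid mice were above all 6 euthyroid mice, a separation in that direction seen in 2.62% of all clusters. Slc25a32 rose by 1.21 ± 0.251 in controls (adjusted p = 0.0291), or 2.31-fold, and differed by 0.97 ± 0.251 in mutants (adjusted p = 0.0942), which missed the threshold. The average rise was 2.12-fold (adjusted p = 0.00219) and was lost only with array SD as a covariate (0.225). In controls the call was lost without control euthyroid replicate 14 (adjusted p = 0.117), control hypothyroid replicate 17 (0.151) or control hypothyroid replicate 18 (0.145), and in 4 other settings.

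Slc25a37 is mitoferrin 1, which brings iron into the matrix for haem and iron-sulfur clusters. Control mice had 6.39, 6.20 and 6.23 when euthyroid and 7.03, 6.49 and 6.44 when hypothyroid; mutants had 6.02, 6.41 and 5.83 and then 6.83, 6.99 and 6.74. Hypothyroid and euthyroid mice did not overlap in either genotype. It rose by 0.77 ± 0.175 in mutants (adjusted p = 0.0489) and by 0.58 ± 0.124 averaged over genotypes (adjusted p = 0.0137), or 1.49-fold. The mutant call held under 7 of 20 alternatives, while the averaged call was lost only with array SD as a covariate, where the difference was 0.34 (adjusted p = 0.58). Slc25a28, mitoferrin 2, was at 6.39 to 6.58 on all 12 arrays and had the smallest pooled SD of the family, 0.0633.

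Slc25a48 and Slc25a17 passed the averaged test with overlapping mice. Slc25a48, a carrier of choline, had 6.30, 5.85 and 6.53 in euthyroid controls and 7.09, 6.75 and 7.05 in hypothyroid controls. Mutants had 5.98, 6.03 and 6.18 when euthyroid and 6.23, 6.74 and 6.45 when hypothyroid. Within each genotype its thyroid states did not overlap. The averaged rise was 0.57 ± 0.126 (adjusted p = 0.0155). The call was lost only with array SD as a covariate, where the difference was 0.30 (adjusted p = 0.616). Slc25a17 is a peroxisomal carrier of coenzyme A and flavin nucleotides, with 8.64, 7.57 and 8.02 in euthyroid controls and 8.65, 8.75 and 8.50 in hypothyroid controls. Mutants had 8.40, 8.41 and 8.48 and then 8.62, 9.14 and 9.23, and its averaged rise was 0.56 ± 0.156 (adjusted p = 0.0464). Control euthyroid replicate 14 was its lowest mouse. That call held under 5 of 19 alternatives; its difference was 0.07 (adjusted p = 0.943) with the array SD covariate.

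For none of these 6 carriers did the hypothyroid difference pass a test of its dependence on genotype. The mutant minus control difference of that effect was -0.26 (95% interval -1.14 to 0.62) for Slc25a30, 0.23 (-0.33 to 0.80) for Slc25a45 and -0.24 ± 0.355 (SE) for Slc25a32. It was 0.39 (-0.14 to 0.92) for Slc25a37, -0.33 (-0.86 to 0.21) for Slc25a48 and 0.01 (-0.65 to 0.67) for Slc25a17. These intervals are wide, so equal effects are not shown. No carrier was called for this difference, and no cluster of the table was (0%); by the unadjusted p only Slc25a33 passed, against 2.75% of all clusters.

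**Figure D2:**
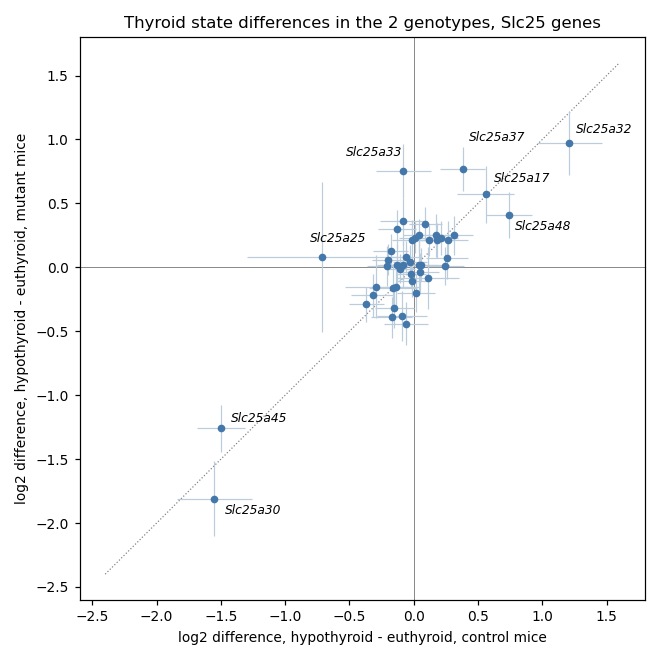
Each point is a carrier, with the log2 difference between hypothyroid and euthyroid control mice (x axis) and mutant mice (y axis); bars are SE and the dotted line marks equal differences. Slc25a30, Slc25a45 and Slc25a32 lie far from 0 on both axes, and Slc25a33 and Slc25a25 lie off the line.

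Slc25a25, the calcium-regulated exchanger of ATP-magnesium and phosphate, was not called in any comparison. It was at 8.56, 8.72 and 8.62 in euthyroid controls, and at 9.09, 8.82 and 5.86 in hypothyroid controls. Mutants had 7.38, 8.51 and 7.72 when euthyroid and 8.33, 7.83 and 7.69 when hypothyroid. The value of 5.86, in control hypothyroid replicate 20, is the lowest of all 12. Its pooled SD of 0.958 was the largest of the family and above that of 99.9% of clusters. Slc25a25 differed by -0.71 ± 0.584 between thyroid states in controls (adjusted p = 0.636), and by 0.32 (0.728) without that mouse, so the sign turned. Between genotypes the averaged difference was -0.37 ± 0.413 (adjusted p = 0.688), and without that mouse it was -0.88 (adjusted p = 0.0373). In euthyroid mice the 3 mutants lay below the 3 controls, and the difference was -0.76 ± 0.584 (adjusted p = 0.747).

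Slc25a1 and Slc25a5, the other carriers considered thyroid hormone linked, had small differences. Slc25a1, the citrate carrier, was at 9.57 to 9.77 in euthyroid controls, 9.67 to 10.02 in hypothyroid controls, 9.62 to 9.82 in euthyroid mutants and 9.83 to 10.05 in hypothyroid mutants. Its thyroid difference averaged over genotypes was 0.22 ± 0.0933 (adjusted p = 0.165), and 0.06 (0.76) after quantile normalization. Slc25a5, an ADP/ATP exchanger of the inner membrane, had 10.61, 10.07 and 10.47 in euthyroid controls and 10.54, 10.57 and 10.56 in hypothyroid controls. Mutants had 10.65, 10.62 and 10.65 when euthyroid and 10.90, 10.88 and 10.79 when hypothyroid. The thyroid difference of Slc25a5 averaged over genotypes was 0.19 ± 0.0959 (adjusted p = 0.224), and 0.04 (0.83) after quantile normalization. Every mutant was above every control, against 0.643% of all clusters in that direction. Yet the mutant difference averaged over thyroid states was 0.28 ± 0.0959 (adjusted p = 0.174), or 0.33 (0.0395) without control euthyroid replicate 13, the highest euthyroid control. In euthyroid mice the mutant difference was 0.26 (adjusted p = 0.642), and 0.1 (0.983) without control euthyroid replicate 14, the lowest mouse at 10.07. The other Slc25a5 clusters differed by 0.28 (adjusted p = 0.168) and 0.21 (0.194) in the averaged mutant comparison. In the former a control at 10.43 lay above a mutant at 10.40, so mutants and controls overlapped there, and how far the 3 clusters share sequence was not tested.

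**Figure D3:**
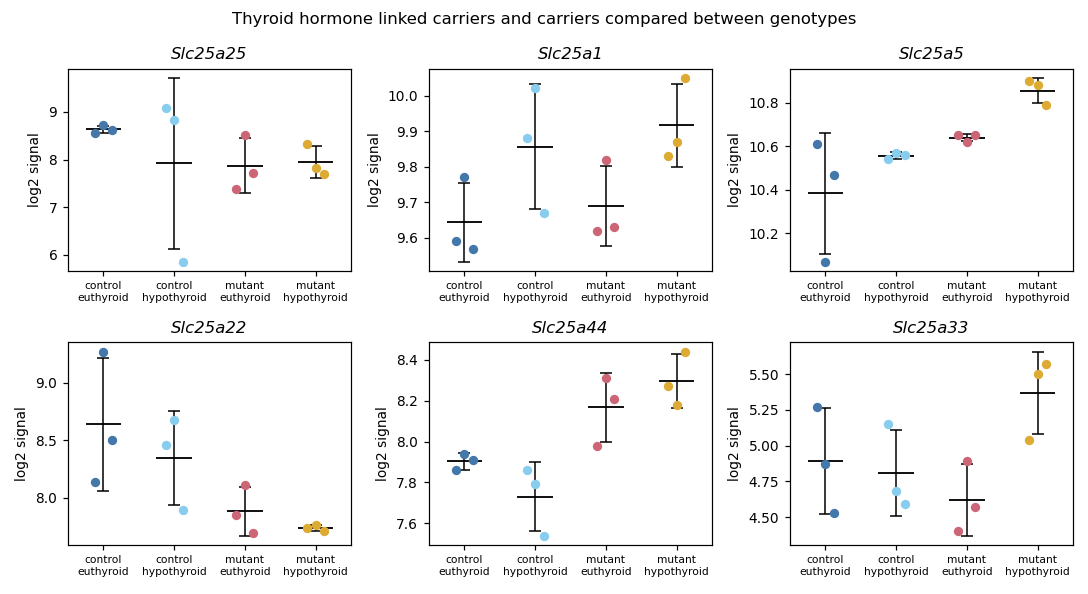
Log2 signal (y axis) of the thyroid hormone linked carriers (top row) and of carriers compared between genotypes (bottom row) in each mouse, by group (x axis); lines and bars are the mean and SD of 3 mice. Slc25a25 has 1 control hypothyroid mouse at 5.86, and all Slc25a5 and Slc25a44 mutants are above all controls.

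Few clusters of the array were called between genotypes within a thyroid state, and no carrier was among them. At the shares below, 0 of 46 does not set the family apart. In euthyroid mice 0 of 46 were called, against 0.129% of all clusters, 3 had an unadjusted p under 0.05, against 8.13%, and 8 had groups that did not overlap, against 10.4%. In hypothyroid mice 0 of 46 were called, against 0.262% of all clusters, 7 had an unadjusted p under 0.05, against 10.4%, and 8 had groups that did not overlap, against 22.5%. Averaged over thyroid states 1 carrier passed, Slc25a44, which rose, against 1.14% of all clusters called and 0.904% called higher. By the unadjusted p 10 passed, against 16.7%, and for 2, Slc25a5 and Slc25a44, all mutants were above all controls, against 1.05% in either direction.

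Slc25a44 transports branched-chain amino acids. The controls had 7.86, 7.94 and 7.91 when euthyroid and 7.86, 7.79 and 7.54 when hypothyroid; the mutants had 7.98, 8.31 and 8.21 and then 8.27, 8.18 and 8.44. Each mutant was above each control. It was 0.41 ± 0.0945 (SE) higher in mutants (adjusted p = 0.0494), or 1.33-fold. That call held under only 4 of 19 alternatives, and in 2 of the 12 runs with a mouse left out. Without control euthyroid replicate 13 there were 6 called carriers, without control hypothyroid replicate 20 there were 2, and without any of 9 other mice there were 0. Those 9 were the euthyroid control mice 14 and 15, hypothyroid control mice 17 and 18, euthyroid mutant mice 3 and 4 and hypothyroid mutant mice 5, 6 and 7.

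Slc25a22, a glutamate carrier, had 8.14, 9.27 and 8.50 in euthyroid controls and 8.46, 8.68 and 7.89 in hypothyroid controls. Mutants had 7.85, 8.11 and 7.69 when euthyroid and 7.74, 7.76 and 7.71 when hypothyroid. Mutants were below controls in each thyroid state, but the 6 mutants and 6 controls overlapped. The averaged difference was -0.68 ± 0.173 (adjusted p = 0.0754). It was -0.80 (adjusted p = 0.00948) without control euthyroid replicate 13 and -0.79 (0.0415) without control hypothyroid replicate 20. Those mice, at 8.14 and 7.89, were the lowest controls of their groups, so leaving either out widens the difference. No other alternative called it, and that includes leaving out control euthyroid replicate 14, the highest control at 9.27. Slc25a47, a carrier found almost only in liver, differed by -0.30 ± 0.117 (adjusted p = 0.222). Slc25a33, a pyrimidine nucleotide carrier, had 4.53 to 5.27 in euthyroid controls, 4.59 to 5.15 in hypothyroid controls, 4.40 to 4.89 in euthyroid mutants and 5.04 to 5.57 in hypothyroid mutants. Between hypothyroid and euthyroid mice its mutant effect differed by 0.83 ± 0.298 (unadjusted p = 0.0139, adjusted p = 1).

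By transported substrate no group had more than 3 carriers called in a comparison, where 0% to 6.04% of all clusters were called. In the adenine nucleotide and phosphate group, 0 of 8 passed in any comparison, and medians of the 7 comparisons ran from -0.02 to 0.06. Slc25a23, another calcium-regulated ATP-magnesium carrier, came nearest, with -0.33 ± 0.0963 between thyroid states averaged over genotypes (adjusted p = 0.0578) and -0.46 (0.0191) after quantile normalization. None of 4 citrate, dicarboxylate and oxo acid carriers passed. Slc25a10, the dicarboxylate carrier, differed by -0.10 ± 0.11 (adjusted p = 0.584) between thyroid states. Of 9 amino acid carriers only Slc25a44 passed; Slc25a13, the liver aspartate-glutamate carrier, differed by 0.24 ± 0.105 (adjusted p = 0.178) between thyroid states and by 0.05 (0.955) with array SD as a covariate. Slc25a20, which exchanges carnitine for acylcarnitine, was at 8.50 to 8.90 on all 12 arrays and differed by 0.00 ± 0.0936 (adjusted p = 0.983). In the cofactor group 2 of 8 rose with hypothyroidism averaged over genotypes, Slc25a17 and Slc25a32, against 4.18% of all clusters called higher, and the list median was 0.18. Of these, Slc25a17 has the call that held under 5 of 19 alternatives. In the iron and glutathione group 1 of 4 rose in the same averaged comparison, Slc25a37, against the same 4.18%. Slc25a39 and Slc25a40, glutathione carriers, did not pass, with 10.14 to 10.49 and 4.35 to 5.08 on the 12 arrays. In the uncoupling-like and unsettled group, averaged over genotypes, 2 of 12 fell with hypothyroidism (1.87% of all clusters fell) and 1 rose (4.18% rose). Within each genotype 2 of 12 fell and 0 rose.

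Values of other carriers that did not pass are given by role. Slc25a3, which imports phosphate for ATP synthesis, was at 8.57 to 8.97 on all 12 arrays and differed by 0.12 ± 0.0853 (SE) between thyroid states averaged over genotypes (adjusted p = 0.401). Slc25a15, the ornithine carrier of the urea cycle, was at 9.59 to 10.26 and differed by 0.00 ± 0.106 (adjusted p = 0.987) between thyroid states and by -0.25 ± 0.106 (adjusted p = 0.255) between genotypes, averaged. Slc25a11, the oxoglutarate carrier of the malate-aspartate shuttle, was at 8.04 to 8.69, and Slc25a38, a glycine carrier needed for haem synthesis, was at 7.01 to 7.28. These ranges hold all 4 groups. Among cofactor carriers, Slc25a26, which brings S-adenosylmethionine into the matrix, was 5.50, 5.56 and 5.81 in euthyroid controls and 5.72, 5.66 and 5.60 in hypothyroid controls. Mutants had 5.66, 5.84 and 5.94 when euthyroid and 6.12, 5.98 and 6.10 when hypothyroid, so mutants and controls overlapped. The mutant effect on Slc25a26 averaged over thyroid states was 0.30 ± 0.0896 (adjusted p = 0.128). Slc25a42, a coenzyme A carrier, had a thyroid difference of -0.27 ± 0.117 (adjusted p = 0.173), and Slc25a16, also linked to coenzyme A, had 0.21 ± 0.0917 (adjusted p = 0.167). Both missed the threshold. Slc25a29, a carrier of basic amino acids, differed by -0.28 ± 0.113 (adjusted p = 0.14). Slc25a46, an outer membrane relative with a part in mitochondrial shape, differed by 0.28 ± 0.108 (adjusted p = 0.125). Slc25a4, the ADP/ATP exchanger of heart and muscle, was at 3.87 to 5.04, and Slc25a31, its testis relative, was at 2.29 to 3.13.

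**Figure D4:**
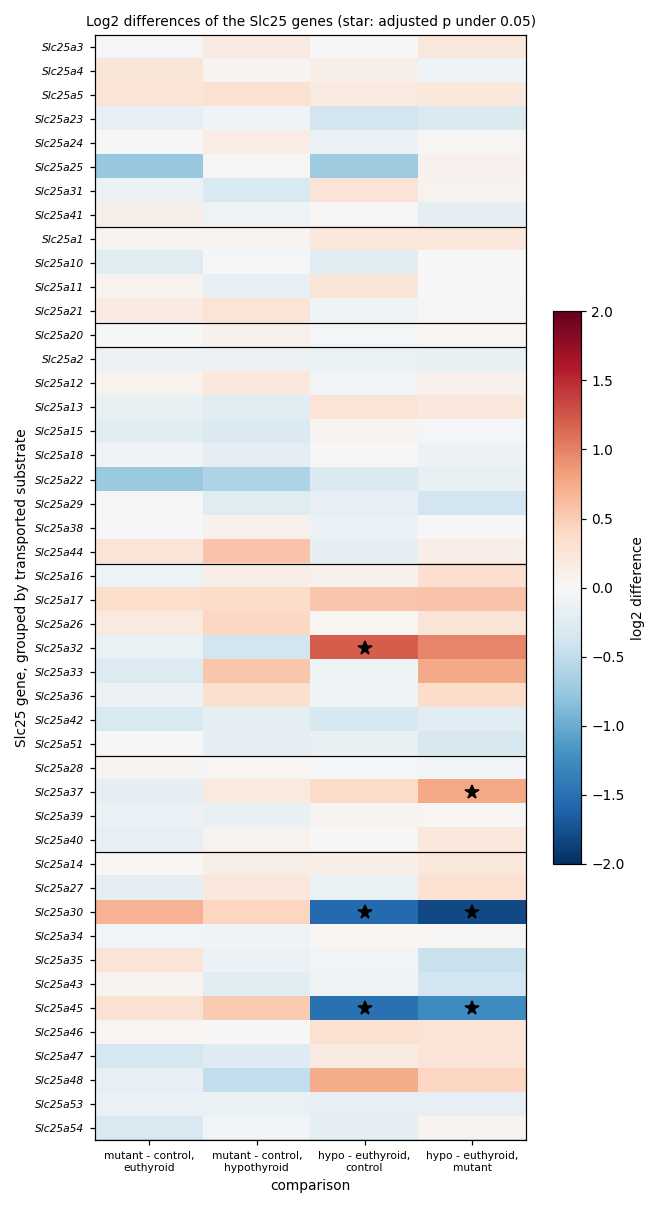
Log2 difference (colour, from -2 to 2) of each carrier (rows, grouped by substrate) in 4 comparisons (columns); a star marks an adjusted p under 0.05. Stars stand only in the 2 columns that compare hypothyroid with euthyroid mice.

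Across the family 34 of 46 genes had group means within 0.5 log2 units of each other, which was not counted for all clusters. The median pooled SD within groups was 0.192, near the 0.193 of all clusters. For 8 carriers, Slc25a2, Slc25a14, Slc25a31, Slc25a35, Slc25a36, Slc25a41, Slc25a53 and Slc25a54, the level was below the array median on every array and 33 were above it on every array. The share of all clusters on either side was not counted, so these levels are not shown to be particular to the family. Among neighbours on the chromosome in RefSeq, Slc25a29 and Slc25a47, Slc25a41 and Slc25a23, Slc25a54 and Slc25a24, and Slc25a43 and Slc25a5 had no called member. Of all clusters 0% to 6.04% were called by comparison, and these genes are too few to set against that share.

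Partner genes of the carriers were read from lists of shuttle enzymes and regulators, and a few of them passed the test. Gpd2, the mitochondrial arm of the glycerol phosphate shuttle, was at 7.26, 6.75 and 7.16 in euthyroid controls and at 4.91, 5.79 and 5.61 in hypothyroid controls. Mutants had 7.72, 7.67 and 7.56 when euthyroid and 7.31, 6.88 and 6.86 when hypothyroid. Gpd2 fell by 1.62 ± 0.208 in hypothyroid controls (adjusted p = 0.000755) and was 1.58 ± 0.208 higher in hypothyroid mutants than in hypothyroid controls (adjusted p = 0.00432). Its thyroid difference in mutants, -0.63, and its mutant difference in euthyroid mice, 0.59, were not called. The mutant effect on Gpd2 differed by 0.99 between thyroid states, which was not called, and no cluster was called for that term. Beside the citrate carrier, malic enzyme Me1 was 1.55 higher in euthyroid mutants (adjusted p = 0.0107) and 1.58 higher in hypothyroid mutants (adjusted p = 0.00521), while Slc25a1 differed by 0.05 and 0.06. Citrate synthase Cs was higher in mutants on average (0.47, adjusted p = 0.0234), and Acly, which splits exported citrate, was higher in hypothyroid mice (0.54, adjusted p = 0.0395). Mtch2, a carrier family relative under another symbol, was 0.49 ± 0.0942 higher in mutants on average (adjusted p = 0.0192). It was 1 of 4 measured relatives to pass, against 0.904% of all clusters called higher. Ppargc1a, a coactivator of mitochondrial gene programmes, rose by 1.26 ± 0.228 in hypothyroid controls (adjusted p = 0.0122), against 0.638% of all clusters called higher. It was the only 1 of 10 biogenesis regulators that passed. None of 4 malate-aspartate shuttle enzymes or 5 measured urea cycle enzymes passed, nor did the 5 measured genes of the pyruvate carrier, calcium uniporter and channel list. The share of all clusters called ran from 0% to 6.04% by comparison. Lists of 4 to 10 genes with 0 or 1 call are too short to set against that share. Crat, which makes acylcarnitines, rose by 0.57 with hypothyroidism on average (adjusted p = 0.0268), and Iscu, an iron-sulfur scaffold, by 0.36 (adjusted p = 0.0317).

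**Figure D5:**
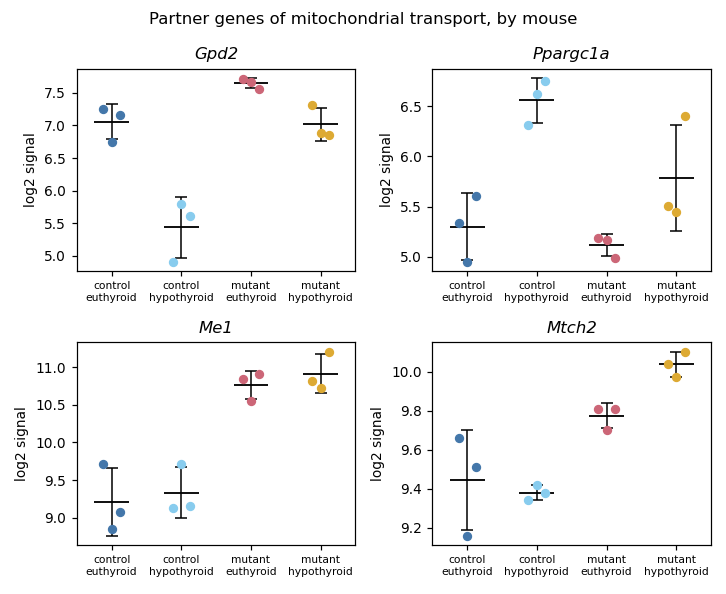
Log2 signal (y axis) of 4 partner genes in each mouse, by group (x axis); lines and bars are the mean and SD of 3 mice. Gpd2 is lowest in hypothyroid controls, and Me1 and Mtch2 are higher in every mutant than in every control.

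Some markers of Kupffer cells, the resident macrophages of liver, were called in the comparisons averaged over genotypes or thyroid states. The mean of 9 Kupffer cell and macrophage markers was 5.86 to 6.03 in euthyroid controls, 5.33 to 5.53 in hypothyroid controls, 6.23 to 7.24 in euthyroid mutants and 5.43 to 6.22 in hypothyroid mutants. Clec4f, Cd5l and C1qc fell with hypothyroidism averaged over genotypes, 3 of 9, against 1.87% of all clusters called lower. Adgre1 alone was called higher in mutants averaged over thyroid states (0.66, adjusted p = 0.0427), against 0.904% of all clusters called higher. In the direct comparisons only Clec4f was called, lower in hypothyroid than in euthyroid mutants, against 0.454% of all clusters called lower. None of the 9 was called between genotypes in either thyroid state, against 0.129% and 0.262% of all clusters. None was called between thyroid states in controls either, against 1.11%. In hypothyroid mice the marker means of the 2 genotypes overlapped. The list median was -0.75 for the averaged thyroid difference and 0.55 for the averaged mutant difference. The part of these cells in the carrier differences was not tested. In bulk liver, fewer cells of a type and less RNA per cell cannot be told apart.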

How the data were processed

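The deposited values are log2 signals; the submitters' processing notes name RMA, without its options or the feature build. The authors' arrays were read as 35557 transcript clusters on 12 arrays, without further normalization, and 21789 clusters with 1 gene symbol were tested; 1621 with several symbols and 12147 with none were left out. Gene symbols came from the platform annotation.

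Groups were compared with limma 3.58.1 in R 4.3.3 (lmFit with 4 group means, eBayes, 8 residual degrees of freedom, Benjamini-Hochberg per comparison, adjusted p threshold 0.05), checked on simulated data. Genes named were drawn from those called, the 3 highest and 3 lowest differences per comparison, and 7 fixed carriers. Of each partner list they were drawn from the called genes and the 2 largest differences. Not all of these are given in the text, and others were chosen after their values were seen. The members and gene lists were chosen with earlier results of these data known. Alternatives were quantile normalization, median centring, leaving out low clusters, testing every cluster, fitting the compared groups alone, array SD as a covariate, an intensity trend, and arrays left out.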

Additional observations from a re-analysis of the deposited data

How the results depend on the processing

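Calls between thyroid states depended on the processing in part. In controls 3 carriers were called, with 1 when every cluster was tested, 1 when the compared groups were fitted alone, and 1 to 5 with an array left out. In mutants 3 were called, with 1 when array SD was a covariate. The Slc25a37 call among them held under 7 of 20 alternatives, and in 4 of the 12 runs with an array left out. Averaged over genotypes 6 were called, with 2 under that covariate. The averaged Slc25a17 call held under 5 of 19 alternatives, and in 2 of the 12 runs with an array left out. The mutant effect averaged over thyroid states gave 1 call, with 0 under quantile normalization, every cluster, array SD, the intensity trend and both outlying arrays left out (control euthyroid replicate 14 and mutant hypothyroid replicate 7), and 0 to 6 with an array left out. Slc25 calls were 0 throughout for the mutant effect in euthyroid mice, in hypothyroid mice and for its difference between thyroid states. Over 87 single gene results, 1603 of 1713 values stayed called in the same direction, or stayed uncalled and moved by under 1 pooled SD. Another 37 stayed uncalled and moved by more, 57 lost a call, 16 gained one, and none reversed a call. Most of the 87 results were not called in the main fit, so the 1603 values do not measure how often a call was kept. The cause of these changes was not tested. No paired analysis was possible because the groups share no replicate number.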
